A study of Mus musculus with 21 samples.

Results

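The CXC chemokine ligands followed here are 6 genes, Cxcl1, Cxcl2, Cxcl3, Cxcl9, Cxcl10 and Cxcl16, chosen by symbol among the 45706 gene identifiers of the count table, of which 45143 were matched to the GENCODE M21 annotation. The study asked how the binding of fibrin to the integrin CD11b/CD18 shapes the response of brain myeloid cells to controlled cortical impact (CCI), a mechanical model of traumatic brain injury. RNA was sequenced from cells sorted out of the tissue around the lesion in 21 libraries, 3 in each of 7 groups, each library made from 2 randomly pooled brains. Microglia (CD45 low, CD11b+) were taken from sham-operated brains and, 1 d or 7 d post-CCI, from brains of either genotype, WT or Fgg γ390–396A. Infiltrating myeloid cells (CD45 high, CD11b+, labelled as macrophages) came from both genotypes at 1 d post-CCI only. All animals were adult males of the C57BL/6 background. In Fgg γ390–396A mice residues of the fibrinogen gamma chain are changed in the germline, so that fibrin still forms but CD11b/CD18 cannot dock on it. All sham controls were WT, and they underwent a craniotomy with no impact, so that 4 of the comparisons below share the same 3 sham libraries and no Fgg γ390–396A sham group was analysed here. The time from sham surgery to harvest is not given, so it may differ from 1 d, 7 d or both.

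CXC ligands are small secreted proteins that steer leukocytes through G protein-coupled receptors. Cxcl1, Cxcl2 and Cxcl3 carry a glutamate-leucine-arginine (ELR) motif, bind Cxcr2 and draw neutrophils, and in myeloid cells they are classical targets of NF-kB after cytokine or Toll-like receptor stimulation. Cxcl9 and Cxcl10 lack that motif, are induced by interferons and attract Cxcr3-bearing T and NK cells. Cxcl16 is made as a membrane protein that binds Cxcr6 and is released when Adam10 or Adam17 cleaves it.

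On GRCm38 the ELR genes Cxcl3 (ENSMUSG00000029379, chr5:90786103-90789600), Cxcl1 (ENSMUSG00000029380, chr5:90891241-90893115) and Cxcl2 (ENSMUSG00000058427, chr5:90903871-90905938) lie on the plus strand of chromosome 5. Cxcl1 and Cxcl2 are 10.8 kb apart with no coding gene between them, and Cxcl3 lies 101.6 kb before Cxcl1. Cxcl9 (ENSMUSG00000029417, chr5:92321347-92328079) and Cxcl10 (ENSMUSG00000034855, chr5:92346638-92348889) lie 18.6 kb apart on the minus strand of the same chromosome. Cxcl16 (ENSMUSG00000018920, chr11:70453983-70459984) is on the minus strand of chromosome 11. All are protein coding and have 4 exons in their longest-spliced transcript, apart from Cxcl16 with 6. The reads of these genes were largely separable: no 31-base word of the Cxcl1 transcripts occurred in another annotated gene, while 7.59% of those of Cxcl2 also occurred in Cxcl3, 4.47% of those of Cxcl10 in the overlapping gene Art3 and 18.5% of those of Cxcl16 in its overlapping neighbour Zmynd15.

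The sequences just upstream of the transcript starts are shown because the ELR ligands are classical NF-kB targets and Cxcl9 and Cxcl10 interferon targets. They were taken from RefSeq windows on GRCm38.p6, which were given for 5 of the 6 genes and not for Cxcl16. Each is written 5′ to 3′ on the gene's strand and ends at the base before the most upstream annotated start. Capitals mark matches on either strand to the kappa B consensus bound by NF-kB or to GAAANNGAAA, the core of the interferon-stimulated response element.
Cxcl1 (chr5:90891091-90891240, plus strand): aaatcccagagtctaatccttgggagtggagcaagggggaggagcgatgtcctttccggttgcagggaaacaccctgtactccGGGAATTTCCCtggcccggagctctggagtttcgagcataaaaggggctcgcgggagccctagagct
Cxcl2 (chr5:90903721-90903870, plus strand): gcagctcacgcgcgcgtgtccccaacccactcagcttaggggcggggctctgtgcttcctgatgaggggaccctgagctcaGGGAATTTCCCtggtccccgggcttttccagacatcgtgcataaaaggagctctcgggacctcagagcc
Cxcl3 (chr5:90785951-90786100, plus strand): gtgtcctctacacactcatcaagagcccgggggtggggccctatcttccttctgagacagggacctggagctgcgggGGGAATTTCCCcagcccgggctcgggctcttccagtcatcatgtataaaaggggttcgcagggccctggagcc
Cxcl9 (chr5:92328080-92328329, minus strand): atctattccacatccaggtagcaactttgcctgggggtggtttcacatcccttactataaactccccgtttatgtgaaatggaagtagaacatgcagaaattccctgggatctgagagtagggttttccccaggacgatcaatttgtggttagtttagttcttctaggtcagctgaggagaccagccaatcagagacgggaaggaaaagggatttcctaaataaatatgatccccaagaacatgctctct
Cxcl10 (chr5:92348890-92349139, minus strand): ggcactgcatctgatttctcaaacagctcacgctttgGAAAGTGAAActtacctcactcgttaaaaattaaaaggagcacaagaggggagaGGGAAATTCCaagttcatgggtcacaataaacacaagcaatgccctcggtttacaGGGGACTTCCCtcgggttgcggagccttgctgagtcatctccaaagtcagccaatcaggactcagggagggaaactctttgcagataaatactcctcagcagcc
The capitals in the 3 ELR genes spell the same letters, GGGAATTTCCC, which is the longest run common to their 250-base windows and occurs in 14 of all 32851 windows (0.0426%). It starts at -71 in Cxcl1, -97 in Cxcl2 and -73 in Cxcl3, counted from the RefSeq start, and the kappa B consensus matches it on both strands at positions shifted by 1 base. Cxcl10 held kappa B matches starting at -159 and -104 and the interferon core starting at -213, and Cxcl9 held neither. In all 250-base windows of the table, 7.3% held the kappa B consensus and 3.0% the interferon core. The gamma-activated site TTCNNNGAA, present in 7.0% of the windows, was found in none of the 5. These are matches of letters and not measured binding.

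**Figure D1:**
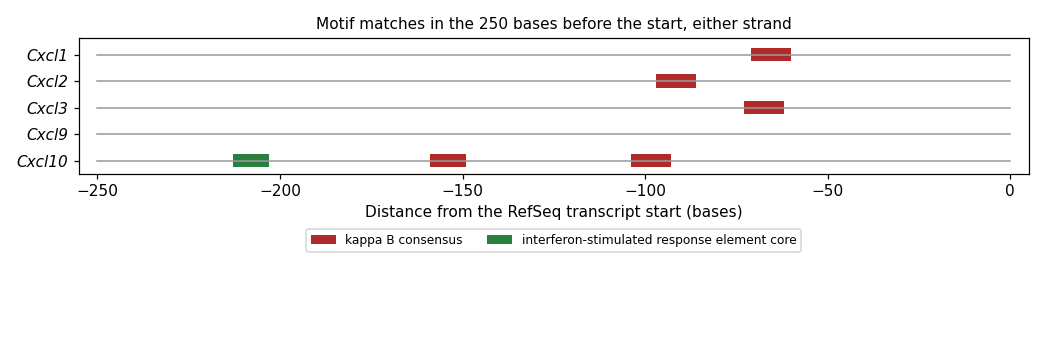
Position of motif matches in the 250 bases before the RefSeq start of 5 CXC ligand genes (x axis, bases from the start; one line per gene). The ELR genes each hold 1 kappa B block, starting at -71, -97 and -73, Cxcl10 holds kappa B blocks starting at -159 and -104 and an interferon core starting at -213, and Cxcl9 has no match.

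The libraries held between 18896963 and 51875790 counts (median 27001623), of which 43.0 to 58.5% fell in ribosomal RNA genes, and 3 counts corresponded to 0.0448 to 0.158 CPM (counts scaled to a common library total) depending on the library. Going by the study's methods and the table's name, gene length is divided out of the deposited values. All comparisons of level between genes, and all shares, rest on that. Microglial markers were highest in the sham libraries (summed 11140 to 12260 CPM over 9 markers, from 2766 to 9378 CPM in injured microglia) and lowest in the infiltrating cells (333 to 952 CPM). The infiltrating libraries carried monocyte markers (summed 1870 to 2237 CPM over 8) and listed neutrophil markers (2774 to 13220 CPM over 10). Most of the latter sum was S100a8 and S100a9 (means of 4342 and 3480 CPM in WT), which monocytes also express. Of the 10, 5 in WT and 6 in Fgg γ390–396A were called higher than in microglia, beside 5.61% and 6.96% of all genes. Camp (1.63 and 1.93 CPM) and Ngp (4.11 and 3.15 CPM) were no higher than the sham means of 4.71 and 13.6 CPM. The share of neutrophils in this gate was not tested. The Fgg gene had 0 counts in all 12 WT and sham libraries and 33 counts in total in 7 of 9 Fgg γ390–396A libraries, which does not test the allele. Because the libraries are bulk samples, fewer cells of a type and less RNA per cell cannot be told apart.

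Sham microglia expressed the 6 ligands at a low level, with a summed level of 28.1 ± 7.91 CPM (mean ± SD, n = 3), and Cxcl16 made up 73.6% of it. The sum was 528 ± 320 CPM in WT microglia at 1 d, where Cxcl2 made up 51.1% on average but ranged from 21.5 to 81.3% between libraries. The sum was 213 ± 118 CPM in Fgg γ390–396A microglia at 1 d, with Cxcl10 at 48.1% and Cxcl2 at 13.3%. At 7 d Cxcl10 was at 44.6% and 41.6% and Cxcl16 at 35.4% and 38.5% in WT and Fgg γ390–396A. Cxcl9 took 15.4% on average in Fgg γ390–396A and 10.8 to 21.1% in the WT libraries. In the infiltrating cells the sum reached 3646 ± 1767 CPM in WT and 1556 ± 1104 CPM in Fgg γ390–396A, and Cxcl2 accounted for 79.8% and 62.5%.

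**Figure D2:**
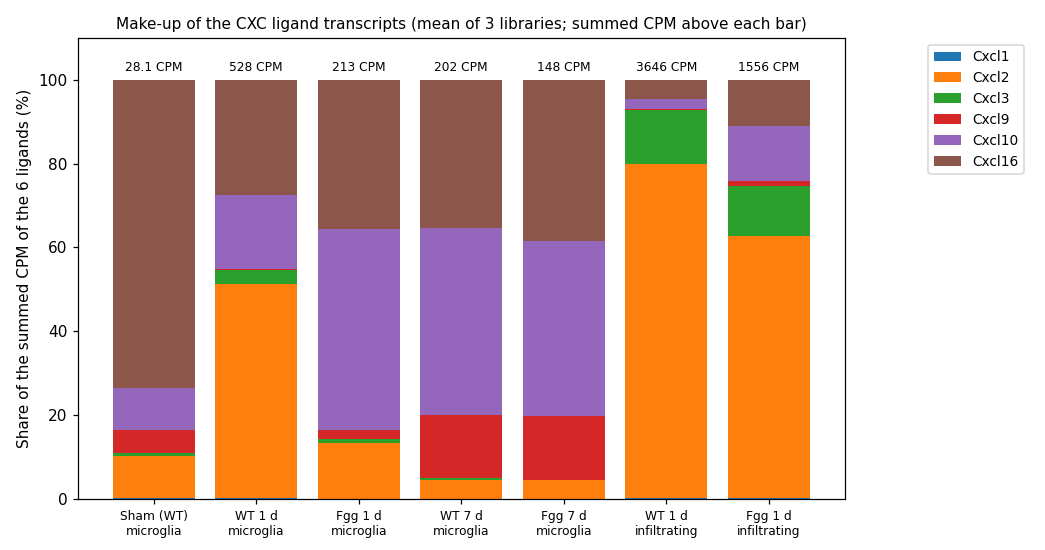
Mean share of each ligand in the summed CPM of the 6 CXC ligands (y axis, %) in the 7 groups (x axis; means of 3 libraries, summed CPM above each bar). Cxcl16 fills 73.6% of the sham bar, Cxcl2 79.8% of the WT infiltrating bar, and Cxcl10 and Cxcl16 most of both 7 d bars.

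Each gene was tested with edgeR's quasi-likelihood test in a fit of all 21 libraries, and a call needed a log2 fold change beyond 1 in size together with adjusted p under 0.05 (0.1 between genotypes). Against sham controls, 4 of the 6 ligands rose in WT microglia at 1 d (8.06% of all 23815 genes tested rose), 2 in Fgg γ390–396A microglia at 1 d (5.49%), 3 in WT microglia at 7 d (1.93%) and 2 in Fgg γ390–396A microglia at 7 d (0.63%). None fell. The median log2 fold change of the 6 ligands was 4.32, 2.30, 2.13 and 0.99 in these 4 comparisons, beside a median of 0 over all genes. Between 1 d and 7 d in WT microglia, 1 ligand rose (2.67% of all genes) and 2 fell (4.39%), while none was called in Fgg γ390–396A microglia (3.54% of all genes in either direction). No ligand was called between genotypes in microglia at 1 d (0.0546% of all genes) or 7 d (0.0378%) or in infiltrating cells (0.453%). In infiltrating cells over microglia, 3 were higher in WT (5.61%) and 2 in Fgg γ390–396A (6.96%).

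**Figure D3:**
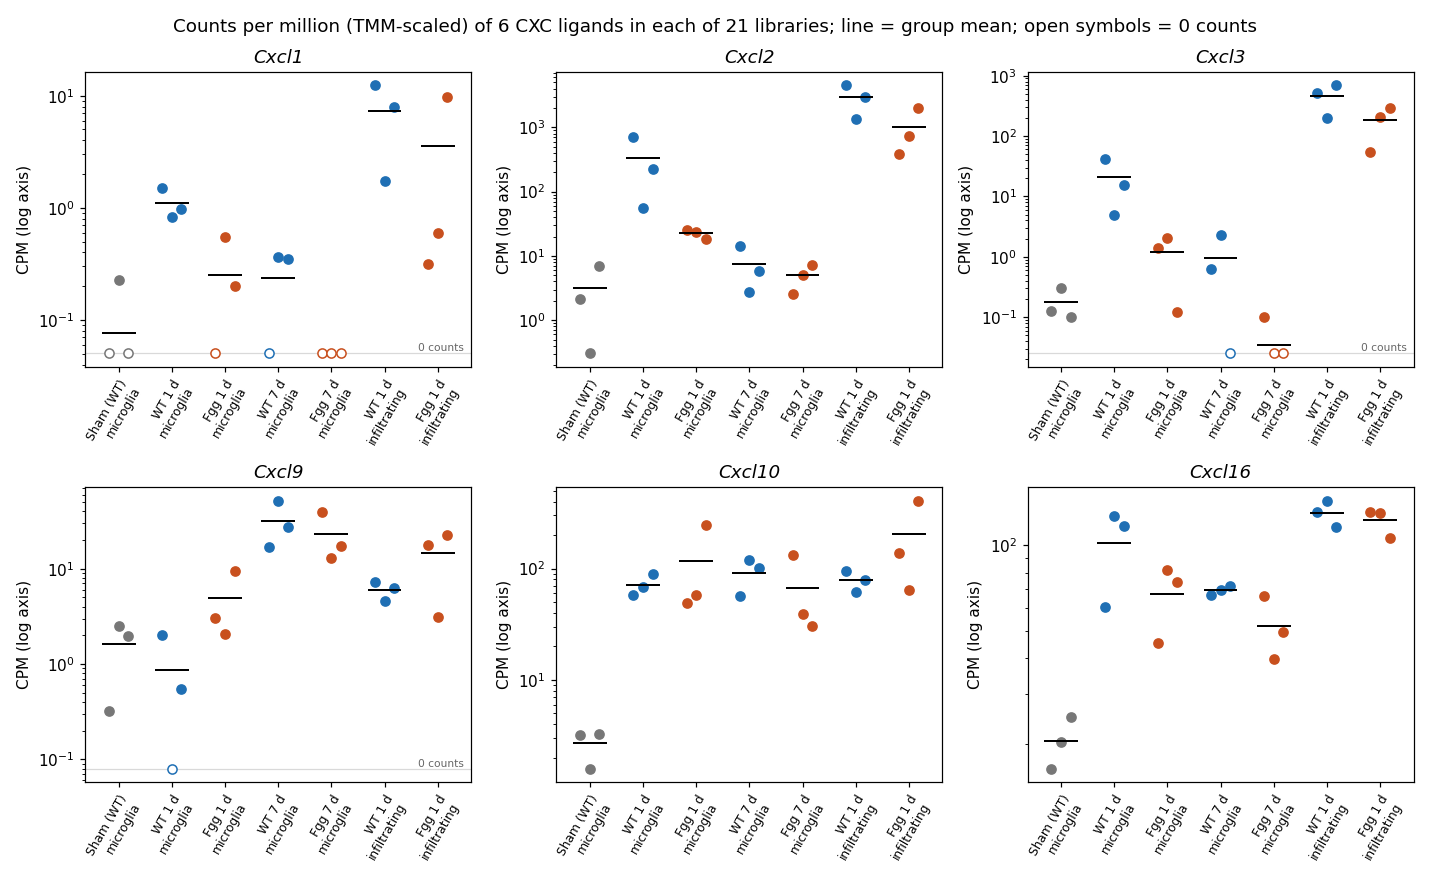
CPM of each CXC ligand (y axis, log scale) in every library of the 7 groups (x axis); lines are group means and open symbols are libraries with 0 counts. Cxcl2 and Cxcl3 are highest in infiltrating cells and, among microglia, in WT at 1 d, Cxcl9 is highest in microglia at 7 d, and Cxcl10 and Cxcl16 lie above the sham libraries in every injured group.

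Cxcl2 had the highest mean of the 6 ligands in WT microglia at 1 d and in both infiltrating groups, and not in Fgg γ390–396A microglia or at 7 d. It measured 2.14, 0.304 and 6.96 CPM in the sham libraries and 716, 54.7 and 228 CPM in WT microglia at 1 d. Every injured WT library lay above every sham library, and replicate 1 was far above the other two injured libraries. The rise was 6.70 on the log2 scale (SE 1.08, 104-fold, edgeR adjusted p = 0.000164). It was 5.46 without WT 1 d replicate 1, the highest library, and 8.06 without sham replicate 3, and stayed called in both. Sham replicate 3, which had the highest Cxcl2, also had the highest summed neutrophil markers of the sham libraries (815 CPM, beside 160 and 249 CPM), and the part of this in the Cxcl2 values was not tested. The summed monocyte markers were 6.92, 7.29 and 43.4 CPM in sham and 141, 147 and 82.9 CPM in WT at 1 d, without overlap. Of the 8, 2 were called higher (8.06% of all genes), and the part of these markers in the rise was not tested. Cxcl2 in Fgg γ390–396A microglia at 1 d measured 25.6, 23.8 and 18.4 CPM, again above all sham libraries but within a narrow range. That difference from sham was 2.82 (SE 0.91, adjusted p = 0.0578), just short of the threshold. It passed without sham replicate 3 (4.18, adjusted p = 0.0201), with no filter on low counts (adjusted p = 0.0481) and by DESeq2 (2.73, adjusted p = 0.014).

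At 7 d Cxcl2 was low again, at 14.2, 2.76 and 5.76 CPM in WT and 2.54, 5.13 and 7.31 CPM in Fgg γ390–396A microglia. Both 7 d groups overlapped the sham group, with differences of 1.24 (95% interval -0.61 to 3.09) and 0.64 (-1.20 to 2.48). They were 2.6 and 1.997 without sham replicate 3, and the WT value was 0.38 without WT 7 d replicate 1, with no call. From 1 d to 7 d Cxcl2 fell by 5.46 on the log2 scale in WT (SE 1.02, adjusted p = 0.0013). The log2 fold change was -4.22 without WT 1 d replicate 1 and -6.35 without WT 7 d replicate 1. The change in Fgg γ390–396A was -2.18 (SE 0.89, adjusted p = 0.202), and these groups did not overlap either.

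Cxcl3, the neighbouring ELR gene with the same upstream run, followed Cxcl2 at a lower level. It had 0.128, 0.304 and 0.101 CPM in the sham libraries, from 4, 8 and 4 counts, and 41.7, 4.96 and 15.6 CPM in WT microglia at 1 d. The groups did not overlap, and replicate 1 was again the highest and replicate 2 the lowest of the injured libraries. Cxcl3 rose by 6.92 (SE 1.19, adjusted p = 0.000312), or by 5.90 without WT 1 d replicate 1. Microglia of Fgg γ390–396A mice at 1 d held 1.402, 2.06 and 0.121 CPM, overlapping sham controls (2.87, SE 1.19, adjusted p = 0.166). At 7 d Cxcl3 varied between the WT libraries, with 0.621, 2.28 and 0 CPM from 13, 56 and 0 counts. It was close to the counting floor in Fgg γ390–396A, with 4, 0 and 0 counts. In WT it fell by 4.42 from 1 d to 7 d (SE 1.00, adjusted p = 0.00597), with log2 fold changes of -3.40 without WT 1 d replicate 1, -6.15 without WT 7 d replicate 2 and -3.82 without WT 7 d replicate 3.

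Cxcl1, the third ELR ligand, was scarce in every microglial group. It had 39, 23 and 25 counts in WT microglia at 1 d (1.49, 0.832 and 0.976 CPM), 0, 22 and 5 counts in Fgg γ390–396A at 1 d, 0, 9 and 9 counts in WT at 7 d, 0 in all 3 Fgg γ390–396A libraries at 7 d, and 0, 6 and 0 counts in sham controls. WT microglia at 1 d lay above all other microglial libraries. The difference from sham did not pass the adjusted threshold (3.92, SE 1.65, unadjusted p = 0.029, edgeR adjusted p = 0.125). Since all but 1 sham library had no count, this fitted value depends on the prior count and no fold is given.

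Cxcl10, which calls in Cxcr3-bearing lymphocytes, rose in all 4 injured microglial groups. It measured 3.22, 1.59 and 3.29 CPM in the sham libraries. WT microglia held 58.3, 67.7 and 88.6 CPM at 1 d and 56.6, 119 and 101 CPM at 7 d. Fgg γ390–396A microglia held 49.2, 57.6 and 244 CPM at 1 d and 133, 39.4 and 30.6 CPM at 7 d. No injured library overlapped the sham range, and the injured groups overlapped one another. The rises over sham were 4.72 (SE 0.75, adjusted p = 0.000147) in WT and 5.42 (SE 0.78, adjusted p = 0.000103) in Fgg γ390–396A at 1 d, and 5.08 (SE 0.76, adjusted p = 0.000715) and 4.64 (SE 0.75, adjusted p = 0.00343) at 7 d. Single libraries set the upper end of the Fgg γ390–396A groups: the rise was 4.29 without Fgg 1 d replicate 3 and 3.69 without Fgg 7 d replicate 1. From 1 d to 7 d the differences were 0.37 (95% interval -0.96 to 1.69) in WT and -0.79 (-2.12 to 0.54) in Fgg γ390–396A.

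Cxcl9, its neighbour on chromosome 5, was higher at 7 d than at 1 d in WT microglia. The sham libraries held 0.319, 2.51 and 1.99 CPM and WT microglia at 1 d 2.02, 0 and 0.546 CPM, so those groups overlapped (-0.90, SE 0.94, adjusted p = 0.577). At 7 d WT microglia reached 16.7, 51.9 and 27.2 CPM, above all libraries of both earlier groups. Cxcl9 rose there by 4.32 over sham (SE 0.96, 20.0-fold, adjusted p = 0.0144) and by 5.22 over 1 d (SE 1.02, adjusted p = 0.00187). The rise over sham missed the threshold without sham replicate 1 (3.83, adjusted p = 0.0827), sham replicate 3 (4.52, adjusted p = 0.0503) or WT 7 d replicate 2 (3.78, adjusted p = 0.0614). The rise over 1 d stayed called and was 6.88 without WT 1 d replicate 1 and 4.57 without WT 1 d replicate 2, the library with no Cxcl9 count. Cxcl9 in Fgg γ390–396A microglia measured 3.07, 2.06 and 9.52 CPM at 1 d and 39.5, 12.9 and 17.2 CPM at 7 d. The difference between these times was 2.27 (SE 0.87, adjusted p = 0.167), with values of 3.17 without Fgg 1 d replicate 3 and 1.64 without Fgg 7 d replicate 1, and was not called. The 7 d libraries lay above all sham libraries, with a difference of 3.86 (SE 0.94, adjusted p = 0.0596) that passed with no filter on low counts (adjusted p = 0.0447) and by DESeq2 (adjusted p = 0.00167), and was 3.23 without Fgg 7 d replicate 1 (adjusted p = 0.218).

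Cxcl16, the membrane-bound ligand of Cxcr6, was the steadiest of the 6, with a median SD between replicates of 0.30 on the log2 CPM scale against 1.17 for Cxcl2. It measured 16.3, 20.2 and 24.7 CPM in the sham libraries, 60.6, 127 and 117 CPM in WT and 45.1, 82.0 and 74.4 CPM in Fgg γ390–396A microglia at 1 d. At 7 d it measured 66.8, 69.6 and 71.8 CPM in WT and 66.4, 39.6 and 49.4 CPM in Fgg γ390–396A. Every injured library lay above every sham library. The rises were 2.31 (SE 0.27, 4.96-fold, adjusted p = 6.25e-06) and 1.72 (SE 0.27, adjusted p = 0.000213) at 1 d and 1.76 (SE 0.27, adjusted p = 0.000758) and 1.34 (SE 0.26, adjusted p = 0.0152) at 7 d in WT and Fgg γ390–396A. The last of these missed the threshold without Fgg 7 d replicate 1 (1.12, adjusted p = 0.0784), sham replicate 1 (1.20, adjusted p = 0.104) or sham replicate 2 (1.33, adjusted p = 0.0781).

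**Figure D4:**
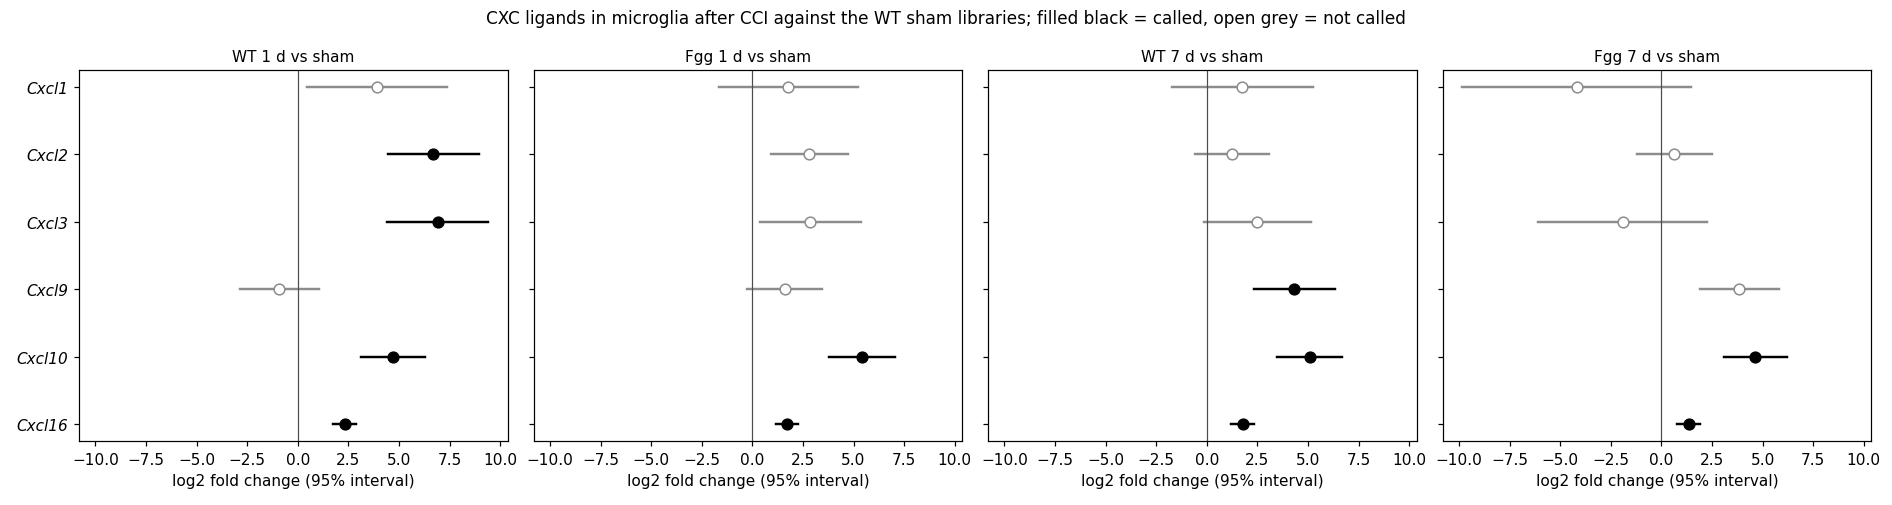
Log2 fold change of each CXC ligand in microglia against the shared WT sham libraries (x axis; points with 95% intervals, filled where called by edgeR), for WT and Fgg γ390–396A at 1 d and 7 d. Cxcl10 and Cxcl16 are filled in all 4 panels, Cxcl2 and Cxcl3 only in WT at 1 d (6.70 and 6.92) and Cxcl9 only in WT at 7 d (4.32).

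Between genotypes in microglia at 1 d, the ELR ligands lay lower and Cxcl9 higher in Fgg γ390–396A, and none passed the adjusted threshold in edgeR. Cxcl2 differed by -3.88 (SE 0.94, 95% interval -5.84 to -1.92, unadjusted p = 0.000552, adjusted p = 0.411), with 716, 54.7 and 228 CPM in WT against 25.6, 23.8 and 18.4 CPM. Cxcl3 differed by -4.05 (SE 0.95, interval -6.04 to -2.06, adjusted p = 0.336). Cxcl1 differed by -2.14 (interval -5.18 to 0.91) and Cxcl9 by 2.50 (interval 0.53 to 4.46, adjusted p = 0.89). For these 4 ligands no Fgg γ390–396A library overlapped a WT library, as was the case for 8.72% of all genes. In Cxcl9 the nearest libraries were almost level, at 2.06 CPM in Fgg γ390–396A replicate 2 and 2.02 CPM in WT replicate 1. Without TMM factors they overlapped, at 2.099 and 2.246 CPM. Cxcl10 and Cxcl16 overlapped, at 0.71 (-0.62 to 2.04) and -0.60 (-1.14 to -0.05). At an unadjusted p under 0.05, 4 ligands passed, Cxcl2, Cxcl3, Cxcl9 and Cxcl16, beside 5.08% of all genes. Without WT 1 d replicate 1 the differences were -2.64 in Cxcl2, -3.03 in Cxcl3 and 4.16 in Cxcl9. Cxcl9 was 1.59 without Fgg 1 d replicate 3 and 1.89 without WT 1 d replicate 2, Cxcl1 was -1.51 without Fgg 1 d replicate 1 and -3.695 without Fgg 1 d replicate 2, and Cxcl10 was -0.42 without Fgg 1 d replicate 3. None of these passed. DESeq2 called 2, Cxcl2 (-3.93, adjusted p = 0.00446) and Cxcl3 (-4.17, adjusted p = 0.0982), where it called 0.614% of the genes it tested. Same-numbered libraries deviated together in this comparison. With the replicate number as a block no ligand was called either, and Cxcl2 differed by -3.43 (adjusted p = 0.398).

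Marker genes moved in part with this difference. The summed microglial markers were 4655, 4069 and 2766 CPM in WT and 6887, 5323 and 5317 CPM in Fgg γ390–396A, without overlap. The summed neutrophil markers were 842, 173 and 565 CPM in the 3 WT microglial libraries at 1 d, in the same order as Cxcl2, and 436, 132 and 105 CPM in the Fgg γ390–396A libraries, and the groups overlapped. The summed monocyte markers were 141, 147 and 82.9 CPM in WT and 93.0, 31.3 and 36.2 CPM in Fgg γ390–396A and overlapped as well. Genes of the response to tissue dissociation summed to 356, 300 and 400 CPM in WT and 197, 74.8 and 275 CPM in Fgg γ390–396A, without overlap, beside 863, 108 and 147 CPM in sham controls. None of the 9 microglial, 10 neutrophil, 8 monocyte or 10 dissociation genes was called between the genotypes, beside 0.0546% of all genes. For single genes, 8.72% of all did not overlap in this comparison. Their part in the Cxcl2 and Cxcl3 difference was not tested.

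At 7 d the genotypes overlapped for 5 of the 6 ligands in microglia, and Cxcl16 alone lay lower in every Fgg γ390–396A library, where 11.1% of all genes did not overlap. Its difference was -0.42 (interval -0.96 to 0.12). edgeR and DESeq2 called no ligand, and 2 had an unadjusted p under 0.05 (3.34% of all genes), Cxcl1 and Cxcl3, both at or near 0 counts in Fgg γ390–396A. The differences in Cxcl2, Cxcl9 and Cxcl10 were -0.60 (-2.43 to 1.22), -0.46 (-2.18 to 1.26) and -0.45 (-1.77 to 0.88).

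In infiltrating cells at 1 d every ligand overlapped between genotypes, where 8.02% of all genes did not. Cxcl2 measured 4516, 1361 and 2989 CPM in WT and 389, 724 and 1969 CPM in Fgg γ390–396A, a difference of -1.53 (interval -3.31 to 0.26, adjusted p = 0.484). Cxcl3 measured 515, 197 and 694 CPM against 54.8, 205 and 294 CPM, a difference of -1.34 (-3.07 to 0.38). Cxcl10 went the other way, with 95.9, 62.2 and 79.2 CPM in WT and 138, 64.4 and 409 CPM in Fgg γ390–396A, a difference of 1.37 (0.02 to 2.71, unadjusted p = 0.0474, adjusted p = 0.427). It was the only ligand with an unadjusted p under 0.05 (11.5% of all genes), and DESeq2 called none. Without Fgg infiltrating replicate 3, the highest Cxcl10 library, the difference was 0.36 in Cxcl10 (adjusted p = 0.913) and -2.41 in Cxcl2 (adjusted p = 0.263). Cxcl16 was nearly level, at 131, 144 and 116 CPM against 131, 130 and 106 CPM (-0.09, interval -0.63 to 0.45).

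**Figure D5:**
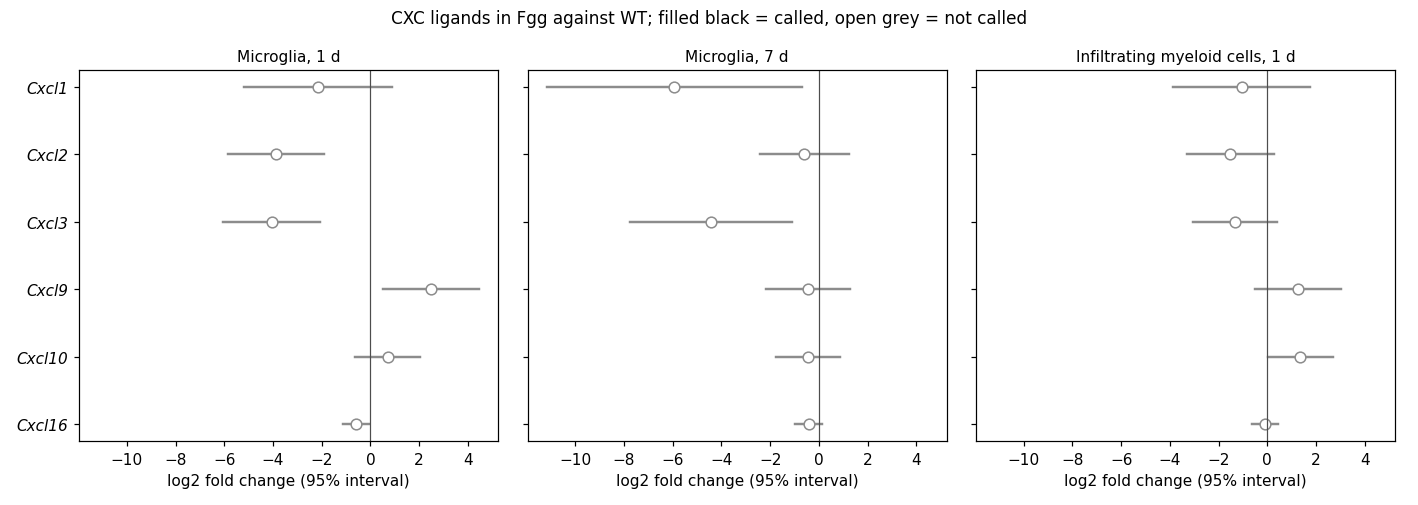
Log2 fold change of each CXC ligand in Fgg γ390–396A over WT (x axis; points with 95% intervals), in microglia at 1 d and 7 d and in infiltrating myeloid cells at 1 d. All symbols are open because no ligand was called by edgeR; the intervals of Cxcl2 and Cxcl3 in microglia at 1 d (-3.88 and -4.05) lie below 0.

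The dependence of the genotype difference on time and on cell type was tested directly. No ligand passed in either test (0% and 0.0462% of all genes passed), and DESeq2 called none. For genotype by time, Cxcl2 gave -3.28 (SE 1.24, unadjusted p = 0.0157) and Cxcl9 2.96 (SE 1.25, unadjusted p = 0.0282), both at an adjusted p of 1, and these 2 were the ligands under an unadjusted 0.05 (2.74% of all genes). For genotype by cell type, Cxcl3 gave 2.71 (SE 1.20, unadjusted p = 0.0362, adjusted p = 0.567) and was the only one under 0.05 (8.37% of all genes), and Cxcl2 gave 2.36 (SE 1.20, unadjusted p = 0.0639). Between 7 d and 1 d in Fgg γ390–396A microglia edgeR called no ligand, 4 had an unadjusted p under 0.05 (Cxcl1, Cxcl2, Cxcl3 and Cxcl9, beside 16.4% of all genes), and DESeq2 called Cxcl1 and Cxcl3, among 7.68% of the genes it tested.

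Infiltrating cells held more Cxcl2 and Cxcl3 than microglia, both sorted from tissue around the lesion, in both genotypes. In WT mice Cxcl2 was higher by 3.15 (SE 0.91, 8.88-fold, adjusted p = 0.0213) and Cxcl3 by 4.50 (SE 0.94, 22.6-fold, adjusted p = 0.00214), and no library overlapped for either gene. The differences in Fgg γ390–396A mice were 5.51 (SE 1.01, adjusted p = 0.000573) for Cxcl2 and 7.21 (SE 1.08, adjusted p = 7.68e-05) for Cxcl3. The WT call for Cxcl2 was lost without WT 1 d microglia replicate 2 (2.68, adjusted p = 0.0758), WT 1 d microglia replicate 3 (2.97, adjusted p = 0.0838) or WT infiltrating replicate 1 (2.71, adjusted p = 0.0688), and the value was 4.39 without WT 1 d microglia replicate 1. Cxcl3 was 5.51 without that same library and stayed called without any single one. Without Fgg infiltrating replicate 3, Cxcl2 in Fgg γ390–396A was 4.62.

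Cxcl1 also peaked in this gate, at 12.4, 1.74 and 7.89 CPM in WT and 0.316, 0.592 and 9.80 CPM in Fgg γ390–396A, with no edgeR call in either genotype. Cxcl9 measured 7.18, 4.63 and 6.27 CPM in WT infiltrating cells, above the WT microglia (2.82, SE 0.95, adjusted p = 0.049). That call was lost without WT 1 d microglia replicate 2 (2.27, adjusted p = 0.134) or replicate 3 (2.62, adjusted p = 0.147) or WT infiltrating replicate 1 (2.67, adjusted p = 0.103), replicate 2 (3.01, adjusted p = 0.0623) or replicate 3 (2.79, adjusted p = 0.0897), and the value was 4.48 without WT 1 d microglia replicate 1. Cxcl10 and Cxcl16 were at similar levels in both gates in WT mice, with differences of 0.14 (interval -1.18 to 1.47) and 0.36 (-0.18 to 0.90). Cxcl16 was higher in infiltrating cells of Fgg γ390–396A mice by 0.86 (SE 0.26, adjusted p = 0.0213), below the bar on the fold change, and passed it without Fgg 1 d microglia replicate 2 (1.03, adjusted p = 0.0197). Cxcl10 there (0.80, adjusted p = 0.39) was called without Fgg 1 d microglia replicate 3 (1.93, adjusted p = 0.0468), and it was -0.21 without Fgg infiltrating replicate 3. Cxcl1 in Fgg γ390–396A (3.84, adjusted p = 0.084) was called without Fgg infiltrating replicate 1 (4.52, adjusted p = 0.0425) and by DESeq2 (3.97, adjusted p = 0.0303), but was 0.88 without Fgg infiltrating replicate 3, the library with the highest count (adjusted p = 0.717). Its WT difference (2.74, adjusted p = 0.225) was called when only the compared groups were fitted (2.78, adjusted p = 0.0227).

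Set against the markers of the infiltrating gate, the mean microglial level at 1 d in WT mice was 11.3% of the infiltrating level for Cxcl2 and 4.43% for Cxcl3, where it was 6.26% for the neutrophil and 5.76% for the monocyte markers. In Fgg γ390–396A mice it was 2.20% for Cxcl2 and 0.647% for Cxcl3, beside 4.88% and 2.68% for those marker lists. For Cxcl10 and Cxcl16 it was 90.5% and 78.0% in WT and 57.4% and 54.9% in Fgg γ390–396A. How much of the microglial Cxcl2 and Cxcl3 came from infiltrating cells inside the microglial gate was not tested.

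Of the receptors, Cxcr2, the receptor of the ELR ligands on neutrophils and one of the 10 markers above, was found almost entirely in the infiltrating gate. It averaged 167 CPM in WT and 149 CPM in Fgg γ390–396A infiltrating cells and 1.11 to 4.21 CPM in the microglial groups. It was higher by 5.31 (SE 1.03, adjusted p = 0.00114) and 6.97 (SE 1.12, adjusted p = 0.000155) over microglia. Cxcr3, the receptor of Cxcl9 and Cxcl10, averaged at most 1.08 CPM in any group. It fell by 4.49 (from 0.927 to 0.0375 CPM, the latter under the level of 3 counts) in WT microglia at 1 d against sham (SE 1.49, adjusted p = 0.0444) and was higher in WT infiltrating cells than in microglia (4.70, adjusted p = 0.0381). Cxcr6, which binds Cxcl16, averaged 0.616 to 1.12 CPM and was not called in any comparison, nor were Cxcr1 and Ackr1. Markers of T and NK cells, which carry Cxcr3 and Cxcr6, summed to 0.351 to 4.06 CPM over 10 genes in microglia and 5.82 to 20.1 CPM in infiltrating cells. In each microglial group 4 or 5 of the 10 had no count in any library, always including Nkg7. The rest had counts in at least 1 library of the group.

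Adam10 and Adam17, the proteases that shed Cxcl16, were at 54.0 to 62.7 and 38.3 to 58.6 CPM in all groups with no call. Dpp4, a peptidase that truncates Cxcl9 and Cxcl10, rose from 0.118 to 1.09 CPM in WT microglia at 1 d (3.27, SE 1.01, adjusted p = 0.0302). Its sham mean was close to the level of 3 counts. Dpp4 was higher in infiltrating cells of both genotypes, at 12.4 and 14.2 CPM (3.50, SE 0.87, adjusted p = 0.00823, and 5.58, SE 0.98, adjusted p = 0.000369). The part of infiltrating cells in its microglial rise was not tested. Among 8 tested of the 9 other CXC ligands listed, Ppbp, a platelet chemokine at 0.0547 CPM in sham, under the level of 3 counts in each sham library, rose in microglia at 1 d to 4.95 CPM in WT (6.47, SE 1.34, adjusted p = 0.0017) and 2.16 CPM in Fgg γ390–396A (5.30, SE 1.37, adjusted p = 0.0152) and fell by 4.45 from 1 d to 7 d in Fgg γ390–396A (SE 1.25, adjusted p = 0.0405). Ppbp, the platelet and megakaryocyte chemokine Pf4, and Cxcl14 were higher in infiltrating cells than microglia in both genotypes. No other CXC ligand of that list was called in any comparison. Cxcl13, a B-cell attractant, averaged 0.161 CPM in sham and 9.37 CPM in WT microglia at 7 d, with wide error (5.95, SE 1.92, adjusted p = 0.137).

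Of 16 genes of the NF-kB pathway, its inducers and its mRNA-decay factors, 3 rose in WT microglia at 1 d (8.06% of all genes) and none fell (4.21%). Their median log2 fold change was 0.25 beside 0 over all genes. The risen genes were Tnf (4.46, SE 0.52, adjusted p = 5.81e-06) and Il1b (2.94, SE 0.58, adjusted p = 0.00107), cytokines that switch on the pathway, and Nfkbiz (1.43, SE 0.45, adjusted p = 0.0334), a nuclear co-regulator. In Fgg γ390–396A microglia at 1 d 2 rose (5.49% of all genes), Tnf (3.66, SE 0.50, adjusted p = 6.82e-05) and Il1b (1.93, SE 0.56, adjusted p = 0.0303). At 7 d Tnf alone rose over sham, in WT (2.62, SE 0.48, adjusted p = 0.0039) and in Fgg γ390–396A (2.45, SE 0.48, adjusted p = 0.0152). Of all genes, 1.93% and 0.63% rose in these comparisons. From 1 d to 7 d in WT, Tnf fell by 1.84 (SE 0.46, adjusted p = 0.0115) and Il1b by 1.86 (SE 0.55, adjusted p = 0.0355), as Cxcl2 and Cxcl3 did, while the inhibitor Nfkbie rose by 1.43 (SE 0.42, adjusted p = 0.0319). Of all genes, 4.39% fell and 2.67% rose between these times. In infiltrating cells over microglia, 7 of the 16 were higher in WT (5.61% of all genes) and 6 in Fgg γ390–396A (6.96%), and none was lower (6.31% and 9.7%). Il1b was higher there by 4.56 (SE 0.62, adjusted p = 3.25e-05) in WT and 4.43 (SE 0.61, adjusted p = 3.28e-05) in Fgg γ390–396A. None of the 16 was called between genotypes. In those comparisons 0.0546% (microglia, 1 d), 0.0378% (microglia, 7 d) and 0.453% (infiltrating cells) of all genes were called.

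Of 17 genes of the interferon pathway, none rose in WT microglia at 1 d (8.06% of all genes) and 2 fell (4.21%). They were the receptor chain Ifngr1 (by 1.33, SE 0.21, adjusted p = 0.000126) and the transcription factor Irf1 (by 1.20, SE 0.36, adjusted p = 0.0269). In Fgg γ390–396A microglia at 1 d only Irf7 rose (2.06, SE 0.51, adjusted p = 0.0117), beside 5.49% of all genes. At 7 d Stat2 and Irf7, which carry the signal from interferon receptors to the nucleus, rose in WT and, against the same sham libraries, in Fgg γ390–396A. Stat2 rose by 1.69 (SE 0.33, adjusted p = 0.00573) in WT and 1.62 (SE 0.33, adjusted p = 0.0183) in Fgg γ390–396A, and Irf7 by 3.96 (SE 0.54, adjusted p = 0.000332) and 3.08 (SE 0.53, adjusted p = 0.00531). Of all genes, 1.93% rose in WT and 0.63% in Fgg γ390–396A. From 1 d to 7 d in WT, Stat2 (1.84), Irf7 (2.91) and Irf9 (1.15) rose, at adjusted p between 0.000851 and 0.00108, alongside Cxcl9. Of all genes, 2.67% rose between these times. In infiltrating cells over microglia, 2 were higher in WT (Jak2 and Irf7, beside 5.61% of all genes) and 5 in Fgg γ390–396A (Ifnar1, Jak2, Stat2, Irf7 and Socs1, beside 6.96%). No gene of the list was called between genotypes. The shares of all genes there were 0.0546% (microglia, 1 d), 0.0378% (microglia, 7 d) and 0.453% (infiltrating cells). Ifng, the interferon that induces Cxcl9 most strongly, averaged at most 0.203 CPM and Ifnb1 at most 0.353 CPM in any group.

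Across the 21 libraries, which differ in group, gate and depth, log2 CPM of Cxcl2 and Cxcl3 ran together (Pearson r = 0.919), Cxcl1 followed both (0.809 and 0.855), and Cxcl9 followed neither (-0.0625 and -0.0915). After the group means were taken off, r between Cxcl2 and Cxcl3 was 0.185 and that between Cxcl9 and Cxcl10 0.446. Among 12302 genes with a mean of at least 1 CPM, the 3 with the pattern most like Cxcl2 over the libraries were Clec4e (r = 0.970), Acod1 (0.962) and Ezr (0.957). Those most like Cxcl3 were Gm37691 (0.964), 2010005H15Rik (0.958) and Timp1 (0.957), and those most like Cxcl1 were Crem (0.890), Map3k20 (0.881) and Ago2 (0.876). For Cxcl9 they were Mx1 (0.883), Stat2 (0.879) and Parp14 (0.874) and for Cxcl10 Bst2 (0.956), Sdc3 (0.905) and Ifi207 (0.868), among which Mx1, Bst2 and Parp14 are known interferon-induced genes. For Cxcl16 the most alike was the ribosomal protein gene Rps20 (0.974). These coefficients describe the 21 libraries and mostly the differences between their groups.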

How the data were processed

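RNA was measured in 21 libraries of sorted brain myeloid cells. The authors ran nf-core/rnaseq with salmon against GRCm38 and deposited 1 table of expected counts. By the methods and the table's name these are scaled so that gene length is divided out and each library sums to its mapped reads, with no normalization between libraries. The deposited values were rounded. Groups came from the labels, and every column matched 1 library. The submitters' notes name R 4.2.0 and DESeq2 1.36.0 for their own tests.

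A gene needed at least 5 counts summed over the libraries, which left 23815. They were tested with the quasi-likelihood functions of edgeR 4.0.16 under R 4.3.3 after TMM scaling, two-sided, with 1 mean per group and Benjamini-Hochberg adjustment across all of them. All 6 ligands passed that filter. Standard errors came from the fold change and its F statistic, and intervals are 95%. The common biological coefficient of variation was 0.643. Interactions were called at an adjusted p under 0.1. DESeq2 1.42.0 and the other settings under the closing section were alternatives. The method was tested on simulated data. CPM use TMM-scaled library sizes, and log2 CPM a prior count of 2. A floor of 3 counts was taken as the limit of detection and covers counting error only, while the intervals of fold changes cover the spread between libraries. Figures were drawn with matplotlib.

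The members, the pathway and marker lists and the tests were chosen with earlier results of these data known. Named genes are the 6 ligands, list members that were called or else the 2 most abundant, and the 3 genes most correlated with each ligand; Cxcl13, Ifng, Ifnb1 and Nkg7 were named after their values were seen, and a few genes that the rule names are not reported here. Libraries are pools of 2 brains, with 3 such pools per group. The p-values rest on the spread between pools within groups, estimated in 1 fit over all 7 groups with information shared between genes. They do not measure the spread of the compared groups alone. For Cxcl2 the SD of log2 CPM ran from 0.25 in Fgg γ390–396A microglia at 1 d to 2.14 in sham. Same-numbered libraries were checked for shared deviations from their group means over 12302 genes. In Fgg γ390–396A against WT microglia at 1 d all 3 pairs correlated above 0.1 (0.372, 0.151 and 0.104), with no label stating a shared batch, and this was the only comparison where they did.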

Additional observations from a re-analysis of the deposited data

How the results depend on the processing

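Each count of called ligands and each ligand's fold change was recomputed with DESeq2 size factors, without ribosomal RNA genes, with filterByExpr or no filter, with a replicate block, with the compared groups or microglia alone, at other thresholds, with DESeq2 and without each library. Of 214 recomputed counts, 202 stayed within 1.5 times the value reported and 12 did not. In Fgg γ390–396A microglia at 7 d against sham, 1 ligand in place of 2 was called with the compared groups only and at a log2 fold change above 1.5, and 1 to 2 with single libraries left out. Between 7 d and 1 d in Fgg γ390–396A, 1 in place of 0 was called with the compared groups only (Cxcl2) and at an adjusted p under 0.1 (Cxcl3), and 2 by DESeq2. Between genotypes in microglia at 1 d, DESeq2 called 2 in place of 0. In WT infiltrating cells over microglia, 1 to 3 were called with single libraries left out, always with Cxcl3. The cause was not tested.

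With the replicate number as a block the counts were 4, 3, 3 and 2 against sham (WT and Fgg γ390–396A at 1 d, then at 7 d), 3 and 0 for 7 d against 1 d, 0 in each genotype comparison and interaction, and 3 and 2 for infiltrating cells over microglia. The block added Cxcl2 in Fgg γ390–396A at 1 d (3.27, adjusted p = 0.0193) and changed no other call. Between genotypes in microglia at 7 d each library also correlated best with its own number, below 0.1. Same-numbered WT infiltrating and microglial libraries correlated at 0.134, 0.166 and 0.0227. No label states whether same-numbered libraries of both gates came from the same pools. The main tests treat them as unpaired.

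Of 1139 recomputed fold changes, 17 gained and 16 lost their call and 17 changed sign, the last only for differences that were not called and only without a single library. Without single libraries, Cxcl10 ranged from -1.74 to 0.34 between 7 d and 1 d in Fgg γ390–396A, from -0.42 to 1.08 between genotypes in microglia at 1 d, from -0.21 to 1.93 and -0.017 to 0.37 for infiltrating cells over microglia in Fgg γ390–396A and WT, and from -0.35 to 1.79 for genotype by cell type, where Cxcl1 ranged from -1.85 to 2.66. Between genotypes in microglia at 7 d Cxcl2 ranged from -1.004 to 0.23 and Cxcl9 from -1.09 to 0.078, and in infiltrating cells Cxcl16 from -0.17 to 0.042. For genotype by time Cxcl16 ranged from -0.44 to 0.045 and Cxcl3 from -1.37 to 3.85. Of 42 group means in CPM, 4 moved by more than 1 SD without TMM factors. They were Cxcl10 in sham (2.70 to 3.93 CPM), Cxcl16 in sham (20.4 to 29.3 CPM) and Cxcl16 in both infiltrating groups. Cxcl16 in WT microglia at 1 d went from 101 to 83.1 CPM, so the size of its rise over sham depends on this scaling. When scaled to counts outside ribosomal RNA genes 31 moved, where all levels are higher by construction. Depth limits Cxcl1, and Cxcl3 outside WT at 1 d and the infiltrating cells, which lay near the floor of 3 counts in many microglial libraries.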
